A study of Mus musculus with 6 samples.

Results

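The CD4 T cells described here carried transcripts of both Izumo1r and Nt5e and none of Foxp3. They were selected on measured values: a cell had at least 1 UMI of Izumo1r, at least 1 UMI of Nt5e and 0 UMIs of Foxp3, Cxcr5, Ccl5, Zbtb16, Cd79a, C1qa, C1qb and C1qc. UMIs are molecular tags, each of which stands for 1 RNA molecule caught in the droplet. Of 38073 cells called in the 6 libraries, 23651 passed the filters of at least 200 genes, at most 12000 UMIs, at most 5% mitochondrial UMIs and at least 10% ribosomal protein UMIs, and 682 of these met the rule. They are called members below.

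The libraries came from spleens of 3 mice of each genotype, H2-O KO or H2-O WT, with 1 library per mouse. All mice were C57BL6/J and unimmunized, with an age of 8 weeks in the labels, and values per mouse follow the order of replicates 1, 2 and 3. All cells had been sorted as live CD3+ CD4+ B220- NK1.1- T cells. RNA was counted by 10x Genomics 5' scRNA-seq. H2-O KO mice, which were bred in house, lack H2-O, an MHC class II chaperone of B cells, thymic medulla and some dendritic cells. The study proposes that H2-O acts together with H2-DM in choosing peptides for MHC class II. It states that this view conflicts with the original model.

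Izumo1r encodes folate receptor 4 (FR4), a surface protein that is high on regulatory T cells (Tregs) and on CD4 T cells held in anergy, a state in which a T cell that has met its antigen no longer responds to it. Nt5e encodes CD73, an ectoenzyme that turns extracellular AMP into adenosine, which dampens T cells through the receptor encoded by Adora2a. FR4 and CD73 together with CD44 mark Foxp3-negative anergic CD4 T cells in mice. Both proteins are also found on Tregs and on follicular helper T cells, which help B cells and express Cxcr5, so a cell of either kind whose Foxp3 or Cxcr5 transcripts were not captured also meets the rule.

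Izumo1r (ENSMUSG00000031933) lies on chromosome 9 from 14885814 to 14903949 and Nt5e (ENSMUSG00000032420) on the same chromosome from 88327197 to 88372092 in GRCm38. Izumo1r was found in 7655 kept cells (32.4%) and Nt5e in 2185 (9.24%). Both were found in 1347 cells, of which 495 also had a Foxp3 UMI, 168 a Cxcr5 UMI, 109 a Ccl5 UMI, 16 a Zbtb16 UMI, 4 a Cd79a UMI and 14 a UMI of C1qa, C1qb or C1qc. A member held a median of 2 Izumo1r UMIs and 1 Nt5e UMI. Nt5e was counted once in 520 of the 682 members, and 180 members had 1 UMI of each gene and so lay at the edge of the rule.

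Nt5e was found more often in cells that had Izumo1r than in cells that did not, among cells with 0 UMIs of the 8 genes the rule sets at 0. To compare cells at 1 depth, each cell was thinned to 1500 UMIs, leaving out 630 H2-O KO and 637 H2-O WT cells that were shallower. Nt5e was then found in 4.33, 6.03 and 6.85% of the Izumo1r+ cells from H2-O KO mice and in 7.14, 3.80 and 10.4% of those from H2-O WT mice. In Izumo1r-negative cells the share was 1.82, 2.23 and 2.16% and 1.43, 1.58 and 2.83%, lower in 6 of 6 libraries. As a measure of free RNA, among 80 cells with at least 2 Cd79a UMIs and no Cd3 UMI, 2 had an Izumo1r UMI and 0 an Nt5e UMI, which allows a share of up to 4.51% for Nt5e (exact binomial 95% limit, counting error only), at a median of 3949 UMIs. Among 81 cells with at least 3 UMIs of C1qa, C1qb and C1qc and no Cd3 UMI, 1 had an Izumo1r UMI and 2 (2.47%, exact binomial 95% interval 0.300 to 8.64%) an Nt5e UMI, at a median of 772 UMIs, against 9.24% with Nt5e in all kept cells at 4807 UMIs. The part of free RNA in the single Nt5e UMIs of members was not tested.

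The libraries gave 195, 108 and 140 members from the H2-O KO mice, against 43, 85 and 111 from the H2-O WT mice. Summed over members, a library held between 240872 and 1121612 UMIs. Members were deeper than the cells they were compared with, at a median of 5404 UMIs against 4804 in the 20683 other Foxp3-negative cells, 4690 in the 2286 Foxp3+ cells and 4715 in 319 Cxcr5+ Foxp3-negative cells. Their ribosomal protein share was 25.1%, against 31.2%, 24.0% and 20.4%. Of all called barcodes 740 occurred in more than 1 library, 278 of them in kept cells, and 0 members carried a shared barcode.

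The frequency of members did not differ between genotypes beyond the spread of the mice. They made up 2.59, 3.06 and 2.76% of kept cells from H2-O KO mice, against 3.28, 2.36 and 4.27% from H2-O WT mice. The ranges overlapped, and the means were 2.80% ± 0.242 for H2-O KO against 3.30% ± 0.954 for H2-O WT (SD over 3 mice each, exact two-sided permutation test, p = 0.6, where 0.1 is the smallest p that 3 against 3 mice allow). The filters kept unlike parts of the libraries, which set the denominators of these shares. From H2-O KO mice they kept 7538 of 8374, 3524 of 4209 and 5075 of 9131 called cells. From H2-O WT mice they kept 1312 of 3908, 3601 of 5415 and 2601 of 7036. All comparisons between genotypes use only the kept cells. Without the ribosomal protein minimum, the sign of the difference in share turned and H2-O KO stood 0.342 percentage points above H2-O WT (exact permutation p = 0.4). The difference was -0.969 points without H2-O WT replicate 2 and -0.0155 points without H2-O WT replicate 3, against -0.498 with all mice.

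**Figure D1:**
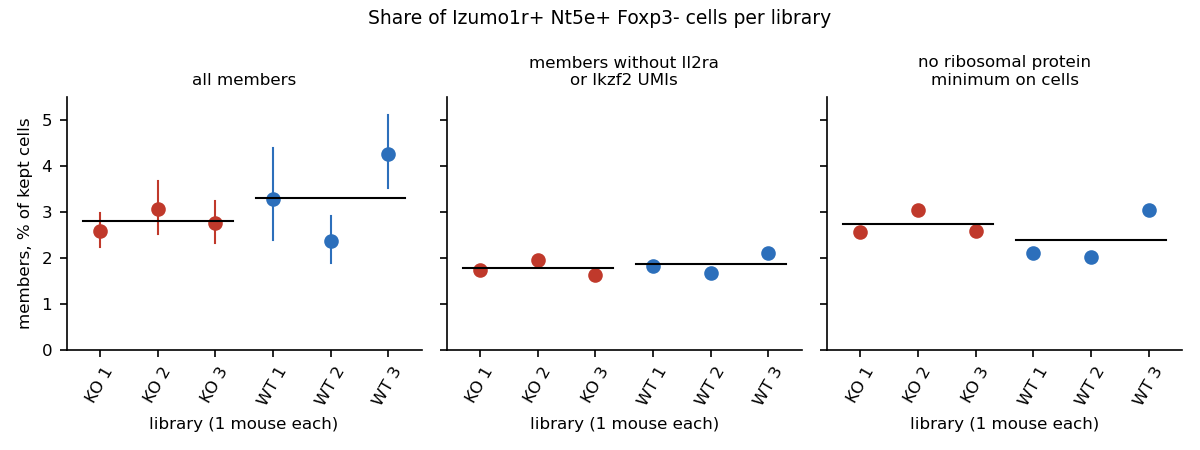
Members as a percentage of kept cells in each library (points, red H2-O KO and blue H2-O WT, with the genotype mean as a line), for the rule as given (left, with exact binomial 95% intervals), for members without an Il2ra or Ikzf2 UMI (middle) and with no ribosomal protein minimum (right). The genotypes overlap in all 3 panels, and H2-O WT replicate 3 is the highest library on the left at 4.27%.

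Members stood apart from the other Foxp3-negative cells of the same mice. UMIs were summed over each class in each library and tested with edgeR's quasi-likelihood test with the library as a block and Benjamini-Hochberg adjustment over all genes, leaving out the 10 genes of the rule. Of 9714 genes, 1441 (14.8%) were called at an adjusted p under 0.05, 795 higher in members (8.18%) and 646 lower (6.65%), with a median log2 fold change of -0.02 over all genes. In such a sum, more cells with a transcript and more transcript per cell cannot be told apart. This and the other comparisons below use the same sums over members and are not independent of each other. Levels are given as CPM, UMI counts scaled to a common library total after TMM.

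The markers given for these cells outside the rule, Cd44 and Pdcd1, were both higher. Cd44, the adhesion receptor of antigen-experienced T cells, ran from 59.2 to 192 CPM in members (median 70.7) and from 34.9 to 51.0 CPM in other Foxp3-negative cells (median 39.4). The 2 ranges did not overlap, and the log2 fold change was 1.12 ± 0.12 (SE, adjusted p = 2.06e-09 by edgeR). Pdcd1, which encodes the inhibitory receptor PD-1, ran from 18.5 to 91.6 CPM (median 54.8) against 3.44 to 16.2 CPM (median 11), also without overlap and with a log2 fold change of 2.33 ± 0.16 (adjusted p = 3.12e-14 by edgeR). Per cell, however, a Cd44 UMI was found in 28.7% of members and a Pdcd1 UMI in 16.4%, against 12.8% and 2.53% of other Foxp3-negative cells.

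Among genes linked to CD4 T cell anergy, 16 of 24 tested rose in members and 3 fell, with a median log2 fold change of 1.08. Lag3, an inhibitory receptor for MHC class II, had the largest rise of the list, from a median of 10.3 CPM (4.30 to 22.1) to 102 CPM (24.1 to 157). The ranges did not overlap and the log2 fold change was 3.15 ± 0.13 (adjusted p = 2.17e-20 by edgeR). The transcription factor genes Egr2 (log2 fold change 1.69 ± 0.22), Nfatc1 (1.25 ± 0.08), Tox (1.11 ± 0.08) and Bhlhe40 (1.86 ± 0.09) rose, as did Tbc1d4, a regulator of vesicle traffic (1.88 ± 0.08), and Nrp1, a semaphorin co-receptor (2.02 ± 0.13). The diacylglycerol kinases, which damp T cell receptor signals, went opposite ways: Dgkz rose by 0.26 ± 0.07 and Dgka fell by 0.22 on the log2 scale. Dtx1, an E3 ubiquitin ligase gene, and Ikzf1, which encodes Ikaros, fell by 0.48 and 0.22. The E3 ubiquitin ligase genes Cblb (log2 fold change 0.10, adjusted p = 0.441) and Itch (-0.08, adjusted p = 0.696) did not pass the edgeR test among all cells, though Cblb did in cells with a Cd44 UMI (0.39, adjusted p = 0.0497), and Rnf128, the ligase GRAIL, was too low to be tested. The Ikzf1 call was lost without H2-O KO replicate 3 (adjusted p = 0.113). Without members that had an Il2ra or Ikzf2 UMI, Dgkz (0.23, adjusted p = 0.162), Dgka (-0.04, adjusted p = 0.833) and Ikzf1 (-0.07, adjusted p = 0.721) did not pass in edgeR, and in Cd44+ cells Dgka (-0.06, adjusted p = 0.874) and Ikzf1 did not.

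Inhibitory receptor genes moved the same way: 8 of 10 tested rose and 0 fell (median log2 fold change 1.35). This is not a separate result, since each of the 8 is also counted in another list. Lag3 and Cd200 are anergy genes, Ctla4 and Tigit Treg markers, and Pdcd1, Btla and Cd200 follicular helper markers. Cd5 is in the T cell receptor signal list and Cd160 in the NKT list. Ctla4 ran from 200 to 341 CPM in members against 46.7 to 89.7 CPM, and Tigit from 53.7 to 155 CPM against 6.88 to 39.5 CPM, both without overlap. After thinning to 1500 UMIs, a Ctla4 UMI was found in 30.9% ± 6.09 of members and 8.03% ± 1.58 of other Foxp3-negative cells (SD, n = 6 libraries), a Lag3 UMI in 12.3% ± 6.81 against 1.20% ± 0.810, and a Pdcd1 UMI in 7.97% ± 4.43 against 1.21% ± 0.522. Unthinned, the shares in members were 52.6%, 22.6% and 16.4%. Each thinned share was higher in members in 6 of 6 libraries (exact paired permutation test, p = 0.031, the smallest that 6 pairs allow, and 0.0557 adjusted over 57 comparisons, above 0.05 for every marker). Of 19 markers thinned in this way, 14 were found more often in members in 6 of 6 libraries and 3, among them Ccr7 and Igfbp4, less often in 6 of 6.

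Members differed among themselves in these receptors. Of the 682, 280 (41.1%) had no UMI of Pdcd1, Lag3, Ctla4 or Tigit, 186 had 1 of the 4, 103 had 2, 83 had 3 and 30 had all 4. Among other Foxp3-negative cells 80.4% had none and 0.251% had all 4. In 238 members (34.9%) there was no UMI of Cd44 or of any of the 4 receptors, as in 72.2% of other Foxp3-negative cells. A transcript can be present in a cell and not counted, so these are shares of cells with a UMI. Cd44 and the 4 receptors were all at 0 in 22.5% of Foxp3+ cells and 17.9% of Cxcr5+ cells either.

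**Figure D2:**
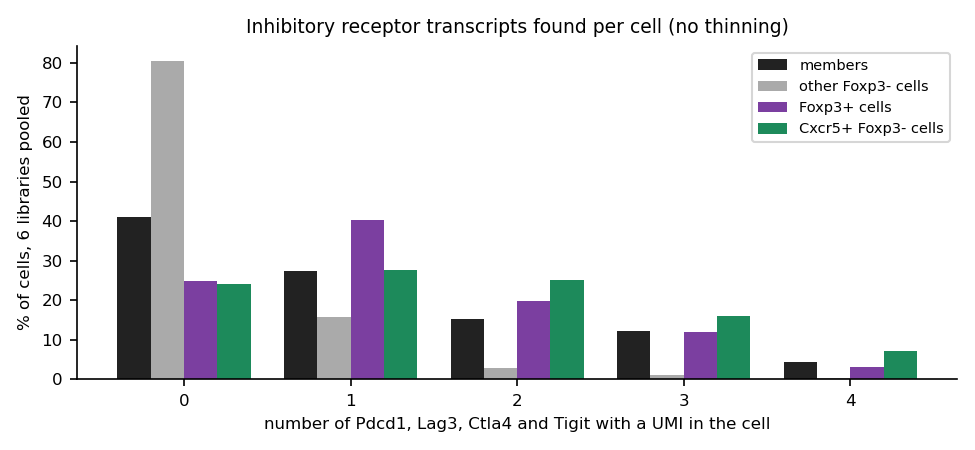
Percentage of cells (6 libraries pooled, all UMIs) by how many of Pdcd1, Lag3, Ctla4 and Tigit had a UMI in the cell, in members, other Foxp3-negative cells, Foxp3+ cells and Cxcr5+ Foxp3-negative cells. Members without any are 41.1%, between the 80.4% of other Foxp3-negative cells and the 24.8% of Foxp3+ cells.

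Treg and follicular helper genes were also higher in members than in other Foxp3-negative cells. Of 13 Treg markers tested 12 rose and 0 fell (median log2 fold change 1.68). Il2ra, the interleukin-2 receptor alpha chain, stood at a median of 32.2 CPM (15.3 to 72.2) against 12.4 CPM (10.7 to 13.0), and Ikzf2, the transcription factor Helios, at 156 CPM (139 to 279) against 41.1 CPM (24.0 to 69.9). Neither pair of ranges overlapped. Of 18 follicular helper markers 16 rose and 0 fell (median log2 fold change 1.47). Sostdc1, a secreted antagonist of BMP and Wnt signals, rose by a log2 fold change of 3.37 ± 0.31, Il21, the cytokine of helper cells for B cells, by 3.11 ± 0.25 and the transcription factor gene Maf by 1.84 ± 0.09. Il21 was at 0 CPM in members of H2-O WT replicate 2, and its ranges overlapped. Bcl6, the defining transcription factor of follicular helper cells, rose by 0.87 ± 0.21, with overlap, and lost its call without H2-O KO replicate 1 (adjusted p = 0.0557 by edgeR).

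An Il2ra or Ikzf2 UMI was found in 260 members (38.1%), in 10.6% of other Foxp3-negative cells and in 75.2% of Foxp3+ cells. Leaving these 260 out, with the comparison cells unchanged, 422 members remained, and the calls against other Foxp3-negative cells fell from 1441 to 343, of which 322 were among the 1441. In these 422 cells 190 of 9533 genes were higher (1.99%), among them 12 of 24 anergy genes, 11 of 16 follicular helper markers and 5 of 9 Treg markers. Lag3 (log2 fold change 1.80), Pdcd1 (1.57), Cd44 (0.72), Nfatc1 (0.63), Tbc1d4 (1.16) and Sostdc1 (2.29) kept their calls. Egr2 (1.01, adjusted p = 0.108), Tigit (0.69, adjusted p = 0.0833), Adora2a (0.30, adjusted p = 0.657) and Bcl6 (0.14, adjusted p = 0.906) did not in edgeR. The Treg marker list summed to 1404 ± 315 CPM in members, 465 ± 88.6 CPM in other Foxp3-negative cells and 3292 ± 312 CPM in Foxp3+ cells, and the follicular helper list to 1111 ± 268 CPM in members, 489 ± 70.6 CPM in other Foxp3-negative cells and 1795 ± 393 CPM in Cxcr5+ cells (SD, n = 6). Icos is in both lists, and Tox2 and Cd200 are in the anergy and follicular helper lists. The part of uncounted Foxp3 or Cxcr5 in these differences was not tested. Restricted to cells with a Cd44 UMI, which left 196 members and 2646 other cells, 433 genes were called, 230 of 6923 higher (3.32%) and 203 lower (2.93%), and 16 of 22 anergy genes, 15 of them also higher among all cells, and 6 of 8 inhibitory receptor genes were higher.

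The naive T cell programme was lower in members. All 14 naive markers tested fell, with a median log2 fold change of -0.45. Ly6c1, a surface protein of naive and some memory cells, fell the furthest, from a median of 227 CPM (180 to 257) to 69.1 CPM (23.0 to 84.3), without overlap and by 1.66 on the log2 scale. Igfbp4 fell by 0.78, Lef1, a transcription factor of naive T cells, by 0.64, and Ccr7, a chemokine receptor for lymph node homing, by 0.49. Ccr7 did not pass without members that had an Il2ra or Ikzf2 UMI (-0.12, adjusted p = 0.407 by edgeR) or in Cd44+ cells (-0.26, adjusted p = 0.375). Of 18 effector and memory genes 12 rose and 0 fell (median log2 fold change 0.64), among them S100a4 (1.08 ± 0.14), S100a6 (1.37 ± 0.09) and the integrin gene Itgb1 (1.18 ± 0.09). Within Cd44+ cells 3 of 16 effector and memory genes rose and 4 fell, with log2 fold changes of 0.45 for S100a6 and 0.38 for Itgb1, and S100a4 stood at 0.10 (adjusted p = 0.851 by edgeR).

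**Figure D3:**
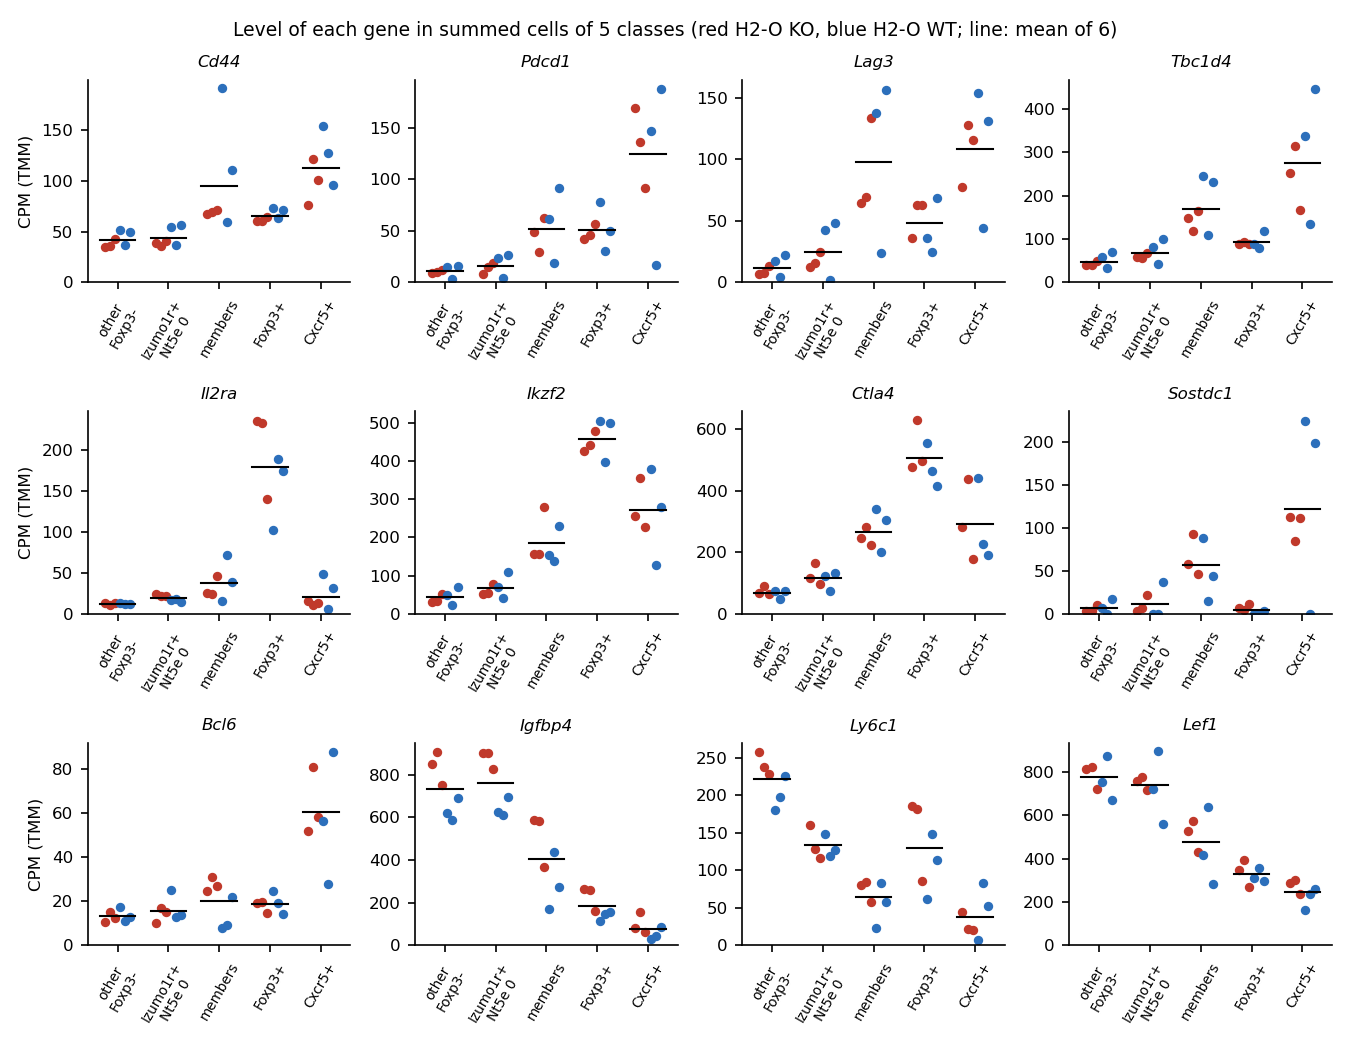
Level in CPM (TMM-scaled) of 12 genes in UMIs summed over each of 5 cell classes, with 1 point per library (red H2-O KO, blue H2-O WT) and the mean of 6 libraries as a line. In Ikzf2, Ctla4 and Lef1 the median of members lies between those of other Foxp3-negative cells and Foxp3+ cells, and in Lag3 it is 102 CPM, above the 49.2 CPM of Foxp3+ cells.

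Genes that handle extracellular ATP and adenosine, the substrate chain and product of CD73, were mostly higher: 6 of 8 tested rose and 0 fell (median log2 fold change 1.05). Adora2a, the adenosine receptor of T cells, ran from 33.3 to 51.0 CPM against 18.0 to 27.0 CPM, without overlap (log2 fold change 1.06 ± 0.14, adjusted p = 1.43e-07 by edgeR). Slc29a1, a carrier of adenosine across the membrane, rose by 1.17 ± 0.13, P2rx7, an ATP-gated channel, by 1.10 ± 0.17, and Art2b, which can open that channel in the presence of NAD, by 1.04 ± 0.13. Entpd1, or CD39, which makes the AMP that CD73 uses, was low at 7.12 ± 5.54 CPM (SD, n = 6) against 3.10 ± 1.33, and its call was lost without H2-O KO replicate 1, H2-O KO replicate 3 or H2-O WT replicate 1 (highest adjusted p = 0.123). In Cd44+ cells Adora2a (0.62, adjusted p = 0.0846), Art2b (0.60, adjusted p = 0.0885) and P2rx7 (0.50, adjusted p = 0.382) did not pass the edgeR test.

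Of T cell receptor signal genes 8 of 15 rose and 1 fell (median log2 fold change 0.32). Cd5, whose level follows the strength of self-recognition, rose from 304 to 365 CPM in other Foxp3-negative cells to 396 to 502 CPM in members without overlap (log2 fold change 0.52 ± 0.06), while Nr4a1, an immediate target of receptor signals, did not pass (-0.10 ± 0.07, adjusted p = 0.338 by edgeR). Without members that had an Il2ra or Ikzf2 UMI Nr4a1 was called lower (-0.34, adjusted p = 0.00939 by edgeR). Of type 1 regulatory genes 5 of 6 rose and 1 fell, with Il10 at 2.68 ± 0.38, which was too low to be tested without members that had an Il2ra or Ikzf2 UMI. Of Th2 and Th17 genes 3 of 4 rose and 0 fell, with Ccr8 at 1.82 ± 0.24. Of 7 Th1 and cytotoxic genes Ifng (1.39 ± 0.18) and Eomes (1.21 ± 0.29) rose. Both calls were lost without members that had an Il2ra or Ikzf2 UMI (Ifng 0.61, adjusted p = 0.119, and Eomes 0.94, adjusted p = 0.364, by edgeR), and that of Ifng in Cd44+ cells (0.36, adjusted p = 0.522). Of 4 cell cycle genes 2 rose, and Mki67 (1.13 ± 0.29) lost its call without H2-O WT replicate 3 (adjusted p = 0.187). Of 10 type I interferon genes 0 rose and 3 fell, and of 11 dissociation and stress genes 3 rose and 2 fell. Of 5 transcripts of low RNA quality 0 rose and 2 fell.

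**Figure D4:**
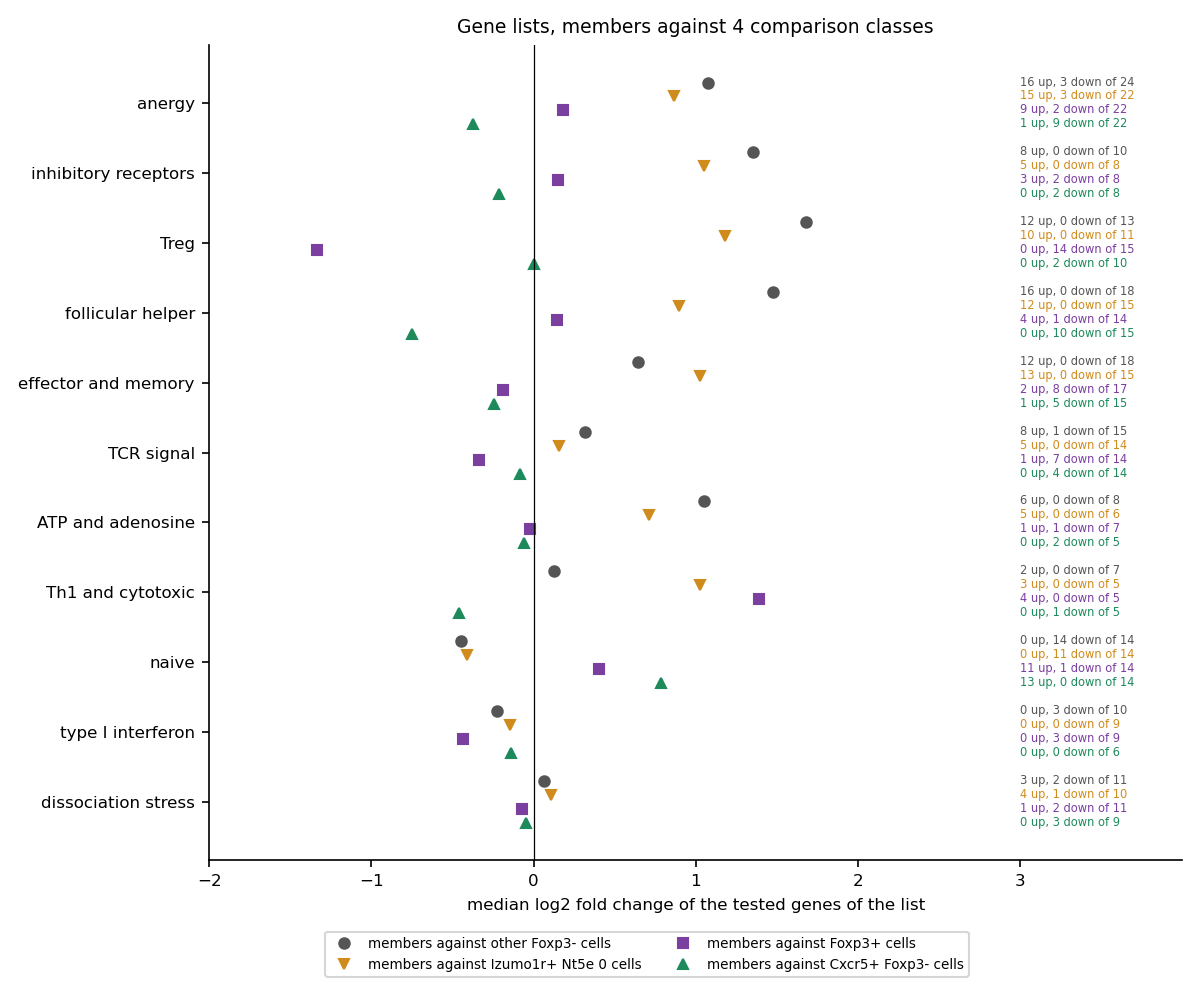
Median log2 fold change of the tested genes of 11 gene lists in members against 4 comparison classes (symbols), with the number of genes higher and lower at an adjusted p under 0.05 beside each. Treg genes lie at 1.68 against other Foxp3-negative cells and at -1.34 against Foxp3+ cells, and naive genes at -0.45 and 0.40.

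By the rule for naming genes, the 10 largest rises against other Foxp3-negative cells were Sostdc1, Angptl2, Csf1, Lag3, Nrgn, Itgb8, Nrn1, Ier5l, Rgs16 and C2cd4b, with log2 fold changes from 2.75 to 3.37. Of these, Ier5l (1.10, adjusted p = 0.101 by edgeR) and C2cd4b (1.18, adjusted p = 0.0573) lost their calls without members that had an Il2ra or Ikzf2 UMI, and Csf1 and Itgb8 were too low to be tested there. Csf1, the growth factor of macrophages, stood at a median of 23.1 CPM (8.79 to 40.4) against 2.30 CPM (1.04 to 5.85). Nrgn, a calmodulin-binding protein, stood at 24.7 CPM (10.5 to 90.8) against 2.85 CPM (1.78 to 9.79), and Itgb8, an integrin chain that activates TGF-beta, at 21.2 CPM (11.1 to 34.2) against 2.34 CPM (0.737 to 7.88). None of these 3 pairs of ranges overlapped.

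The 5 largest falls, H2-Eb1, H2-Aa, H2-Ab1, Lyz2 and Cd74, are genes of antigen-presenting cells, and the rule set cells with B cell or macrophage transcripts at 0. Cd74, the invariant chain, had a log2 fold change of -2.49, and of -0.23 (adjusted p = 0.591 by edgeR) against other cells with the same genes at 0. Lyz2, the lysozyme of myeloid cells, stayed lower in that comparison (-3.66, adjusted p = 2.12e-08 by edgeR), and H2-Eb1, H2-Aa and H2-Ab1 were too low to be tested in it. The B cell marker list, without Cd79a, summed to 245 ± 31.5 CPM in members and 329 ± 28.0 CPM in other Foxp3-negative cells (SD, n = 6), with Ighm its most abundant gene. Of 6 B cell markers tested 4 fell, and of 4 macrophage markers 2 fell, the macrophage list summing to 81.6 ± 13.4 CPM against 139 ± 19.8 CPM with Cst3 its most abundant gene and Cd5l, Spic and Marco at 0. NKT and innate markers summed to 190 ± 39.6 CPM against 123 ± 19.6 CPM, with Il2rb the most abundant, 2 of 5 tested higher and 1 lower. Cd8b1 was the 1 CD8 marker tested and fell, with Cd8a at 0 in members. The further falls included Amigo2, a cell adhesion gene (log2 fold change -1.76 ± 0.23), Pdlim4 (-1.54 ± 0.13), Slc16a5 and Gm11695.

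Members were also compared with 4660 cells that had Izumo1r, no Nt5e UMI and the same genes at 0, a comparison added after the data were seen. It does not isolate Nt5e, since Izumo1r itself stood at 690 CPM in members and 429 CPM in these cells (means of 6 libraries without TMM scaling). Of 8163 genes 898 (11%) were called, 513 higher in members (6.28%) and 385 lower (4.72%). The largest rises were Csf1, Nrgn, Sostdc1, Itgb8, Angptl2, Lag3, Rgs16, Cd83, Ier5l and Slc22a15, with log2 fold changes of 2.85 ± 0.33 for Csf1, 2.21 ± 0.14 for Lag3 and 2.12 ± 0.14 for Cd83. Pdcd1 (1.90 ± 0.18), Cd44 (1.03 ± 0.12), Tbc1d4 (1.36 ± 0.08) and Adora2a (0.79 ± 0.14) were higher and Lef1 (-0.57 ± 0.06), Ly6c1 (-0.90 ± 0.11) and Amigo2 (-1.46 ± 0.25) lower. Of the lists, 15 of 22 anergy genes rose and 3 fell, 13 of 15 effector and memory genes rose, 12 of 15 follicular helper markers rose, 10 of 11 Treg markers rose and 11 of 14 naive markers fell.

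Without the 260 members that had an Il2ra or Ikzf2 UMI, this comparison called 104 genes, 95 of them among the 898, with 60 of 7740 higher (0.775%). Of effector and memory genes 13 of 15 were still higher, 12 of them the same genes, while the other lists shrank, to 5 of 21 anergy genes, 5 of 11 follicular helper markers and 2 of 8 Treg markers. Lag3 (log2 fold change 0.89, adjusted p = 0.0254), Pdcd1 (1.16, adjusted p = 0.0149) and Cd44 (0.64, adjusted p = 0.0165) passed the edgeR test in it, and Cd83, a surface protein of activated lymphocytes, stood at -0.08 (adjusted p = 0.962). Adora2a (0.04, adjusted p = 0.986), Lef1 (-0.19, adjusted p = 0.0509), Rgs16 (0.44, adjusted p = 0.591), Ier5l (0.41, adjusted p = 0.762) and Pdlim4 (-0.45, adjusted p = 0.263) did not pass the edgeR test in it, and Csf1, Nrgn, Itgb8, Angptl2 and Slc22a15 were too low to be tested. As a description with no test, Lag3 stood at 102 CPM in members, 22.3 CPM in Izumo1r+ Nt5e-negative cells, 9.17 CPM in Izumo1r-negative Nt5e+ cells and 1.43 CPM in cells with neither (means of 6 libraries without TMM scaling). In the 180 members with 1 UMI of each gene (8 to 51 per library) Lag3 stood at 19.9 CPM (0 to 90.4). In the other 502 it stood at 128 CPM (36.1 to 191). Ctla4 stood at 139 CPM (69.4 to 298) against 324 CPM (250 to 387), and Igfbp4 at 527 CPM (243 to 907) against 369 CPM (165 to 550). Each pair of ranges overlapped, and the split uses the counts of the rule genes themselves.

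Against the Foxp3+ cells, members had less of the Treg programme and more of the naive one. Foxp3 itself splits these classes, so genes that go with Foxp3 differ in part by construction. Of 7794 genes 781 (10.0%) were called, 344 higher in members (4.41%) and 437 lower (5.61%), with a median log2 fold change of 0.01. Of 15 Treg markers 14 fell and 0 rose (median log2 fold change -1.34). Il2ra ran from 15.3 to 72.2 CPM in members and from 102 to 236 CPM in Foxp3+ cells, Ikzf2 from 139 to 279 CPM and from 397 to 506 CPM, and Ctla4 from 200 to 341 CPM and from 416 to 628 CPM, all without overlap. Klrg1, a receptor of differentiated effector cells, had the largest fall of the list (log2 fold change -3.76 ± 0.25), and Itgae (-2.55 ± 0.24) and Lrrc32, which anchors TGF-beta on Tregs (-2.42 ± 0.18), also fell. Flicr, a noncoding RNA gene whose interval overlaps that of Foxp3 (chromosome X, 7573600 to 7581027 and 7573644 to 7595245, both annotated on the plus strand), stood at a log2 fold change of -2.99, which is not independent of the rule. Sdc4, Ccr2, Penk and Neb were among the 10 largest falls.

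Of 14 naive markers 11 were higher in members than in Foxp3+ cells and Ly6c1 was lower, with Igfbp4 at 1.19 ± 0.08 and Lef1 at 0.57 ± 0.07. Of 5 Th1 and cytotoxic genes 4 were higher and 0 lower, with log2 fold changes of 1.93 ± 0.23 for Ifng, 2.18 ± 0.36 for Eomes and 1.39 ± 0.20 for Fasl. Ifng ran from 27.8 to 138 CPM against 6.51 to 17.5 CPM, without overlap. Sostdc1 had the largest rise, at a median of 52.0 CPM (14.8 to 92.4) against 3.79 CPM (0 to 11.8), followed by Eomes and Gpm6b, a membrane glycoprotein (2.07 ± 0.22). Anergy genes were divided, 9 of 22 higher and 2 lower (median 0.18): Lag3 (0.92 ± 0.14), Tbc1d4 (0.83 ± 0.10) and Tnfsf11, the cytokine RANKL (0.72 ± 0.16), were higher, and Nrp1 (-0.51 ± 0.14) was lower, a call lost without H2-O KO replicate 1 or H2-O KO replicate 2 (highest adjusted p = 0.189). Cd44 (0.39 ± 0.13, adjusted p = 0.0526) and Pdcd1 (0.12 ± 0.15, adjusted p = 0.751) did not pass in edgeR, though Cd44 did with no filter on low counts (0.36, adjusted p = 0.0261). Without members that had an Il2ra or Ikzf2 UMI, and with the Foxp3+ cells unchanged (75.2% had such a UMI), Pdcd1 turned to -0.68 (adjusted p = 0.00879 by edgeR) and Lag3 to -0.38 (adjusted p = 0.326), and Tbc1d4 (0.11, adjusted p = 0.681) and Tnfsf11 (0.22, adjusted p = 0.543) did not pass. Cd44 stood at -0.006 in that setting (adjusted p = 0.991 by edgeR). A filter on 1 side of a comparison moves genes that go with Il2ra and Ikzf2 by its construction.

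Of the remaining lists against Foxp3+ cells, 7 of 14 T cell receptor signal genes were lower and Cd5 higher (0.18 ± 0.06), a call that held in 2 of the 6 fits that left out a library. Effector and memory genes were lower in 8 of 17 and higher in 2, all 4 Th2 and Th17 genes tested were lower, and 3 of 6 type 1 regulatory genes were lower and Lag3 higher. Of inhibitory receptor genes 3 of 8 were higher and 2 lower, and of 7 ATP and adenosine genes Slc29a1 was higher and Entpd1 lower. Cd74 stood at a log2 fold change of -2.40, and Foxp3+ cells with B cell or macrophage transcripts had not been removed.

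Against Cxcr5+ Foxp3-negative cells with the other genes of the rule at 0, members were lower in follicular helper genes and higher in naive ones. Cxcr5 itself splits these classes, so genes that go with Cxcr5 differ in part by construction. Of 5977 genes 262 (4.38%) were called, 150 higher in members (2.51%) and 112 lower (1.87%). Of 15 follicular helper markers 10 fell and 0 rose (median log2 fold change -0.75, against -0.01 over all genes), with Tox2 at -1.80 ± 0.20, Bcl6 at -1.47 ± 0.22, Pdcd1 at -1.34 ± 0.18, Sostdc1 at -1.09 ± 0.20 and Maf at -0.75 ± 0.12. Bcl6 ran from 7.66 to 30.8 CPM in members and from 27.8 to 87.6 CPM in Cxcr5+ cells, which overlap. Of 14 naive markers 13 rose and 0 fell. Igfbp4 ran from 169 to 590 CPM against 28.0 to 154 CPM and Il7r, the interleukin-7 receptor, from 194 to 552 CPM against 49.1 to 167 CPM, both without overlap.

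Anergy genes leaned to the Cxcr5+ cells. Of 22 tested 9 were lower in members and 1, Dgka, higher, with Tbc1d4 at -0.73 ± 0.12 and Nrp1 at -0.64 ± 0.16. Lag3 (-0.20 ± 0.15, adjusted p = 0.67), Ctla4 (-0.13 ± 0.12, adjusted p = 0.742) and Cd44 (-0.36 ± 0.16, adjusted p = 0.29) did not pass the edgeR test, which does not show equal levels. Without members that had an Il2ra or Ikzf2 UMI, and with the Cxcr5+ cells unchanged (53.9% had such a UMI), all 3 were called lower in members, at -1.51 for Lag3, -1.07 for Ctla4 and -0.77 for Cd44 (adjusted p = 2.26e-06, 5.05e-08 and 0.00197 by edgeR). Of 10 Treg markers Ikzf2 (-0.53 ± 0.14) and Tigit were lower and 0 higher, with Tigit at a median of 87.3 CPM (53.7 to 155) against 203 CPM (50.0 to 350). The Nrp1 call was lost without H2-O KO replicate 1 or H2-O KO replicate 2 (highest adjusted p = 0.0837), and the Ikzf2 call also without H2-O WT replicate 1 (0.231).

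The question of what H2-O does to these cells was put to sums over members per mouse. The gene of the H2-O alpha chain, H2-Oa (ENSMUSG00000024334), occupies bases 34092340 to 34095234 of chromosome 17. Members of the H2-O KO mice held 5, 2 and 2 of its UMIs and those of the H2-O WT mice 4, 8 and 6, or 4.46, 3.29 and 2.80 CPM against 16.6, 14.7 and 9.94 CPM. Every H2-O KO library lay below every H2-O WT library, also in all kept cells, with 4.57, 3.59 and 3.96 CPM against 6.12, 6.61 and 10.6 CPM. H2-Ob, the gene of the beta chain on the same chromosome, went the other way, with 24.1, 28.0 and 21 CPM in members for H2-O KO against 16.6, 18.3 and 16.6 CPM for H2-O WT. Separation of the libraries by genotype was common: in other Foxp3-negative cells it held for 44% of the 6870 genes tested in members. No test is given here for H2-Oa or H2-Ob, and the H2-Oa counts in members are small.

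In members 7 of 6870 genes (0.102%) were called between genotypes, 3 higher in H2-O KO and 4 lower, with 591 at an unadjusted p under 0.05 and 6 called by DESeq2, of which 5 were among the 7. Glo1, glyoxalase 1, stood at 167, 173 and 183 CPM for H2-O KO against 30.6, 72.2 and 52.8 CPM for H2-O WT (log2 fold change 1.63 ± 0.20, adjusted p = 0.000428 by edgeR). Dnah8, an axonemal dynein, stood at 192, 139 and 133 CPM against 76.6, 53.7 and 49.7 CPM (1.43 ± 0.21). Hspa1b, the inducible heat shock protein, stood at 7.03, 8.11 and 14.9 CPM against 42.1, 122 and 233 CPM (-3.92 ± 0.44). The antisense gene A930015D03Rik was higher in H2-O KO (3.87 ± 0.67), and the predicted genes Gm47283 (-3.46 ± 0.41) and Gm21887 (-3.72 ± 0.57) and the ribosomal protein gene Rpl23a (-0.92 ± 0.17) were lower. DESeq2 did not call A930015D03Rik (adjusted p = 0.183) or Gm21887 (0.999).

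**Figure D5:**
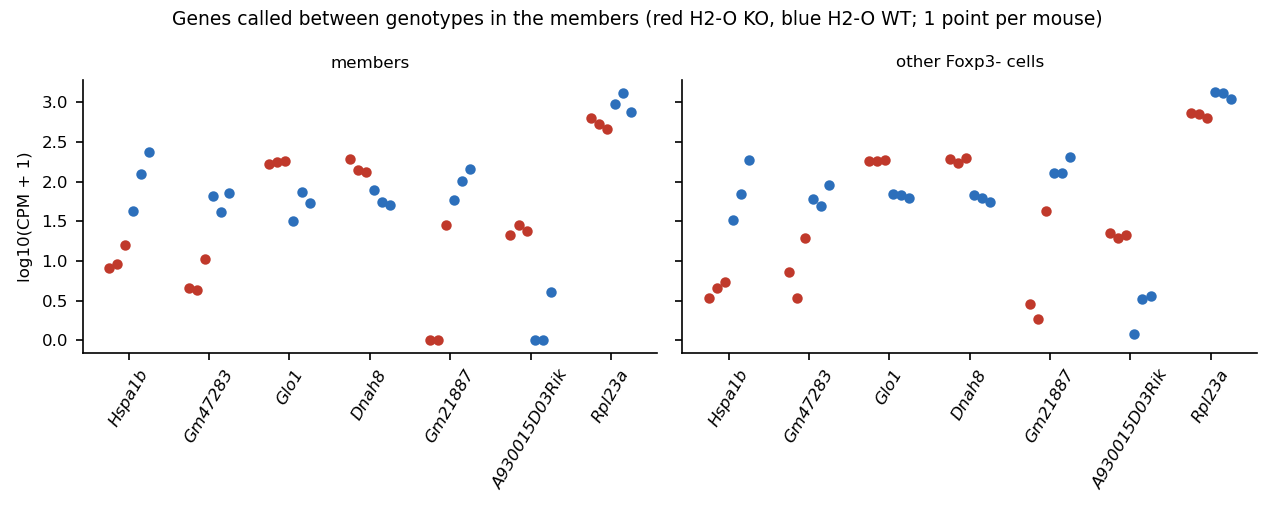
Level as log10(CPM + 1) of the 7 genes called between genotypes in members, in members (left) and other Foxp3-negative cells (right), with 1 point per mouse (red H2-O KO, blue H2-O WT). The genes were chosen for their difference in members, where for example Glo1 lies at 167 to 183 CPM in H2-O KO and at 30.6 to 72.2 CPM in H2-O WT.

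In other Foxp3-negative cells of the same mice, 7 of 7 also had every H2-O KO library on 1 side of every H2-O WT library, against 44% of the 6870 genes. The 7 were chosen for their difference between these mice. On chromosome 17, which carries H2-Oa and held 361 of the genes tested, lay 4 of the 7, namely Glo1 (30584936 to 30626871), Dnah8 (30624354 to 30877365), Hspa1b (34956436 to 34959238) and A930015D03Rik (35994453 to 36038435). The intervals of Glo1 and Dnah8 overlap on opposite strands. Hspa1b has a near-identical neighbour, Hspa1a, so its count is uncertain. Rpl23a lies on chromosome 11 (78180932 to 78183584), Gm47283 on chromosome Y (90784738 to 90816464) and Gm21887 on chromosome X (170009659 to 170019281). The study's methods describe the sorted mice as female, and what the counts of Gm47283 stand for was not tested. Glo1, Hspa1b and Gm47283 kept their calls in all 6 fits that left out a library, Dnah8 lost its call without H2-O KO replicate 1 and Gm21887 without H2-O KO replicate 1 or H2-O WT replicate 3, while Rpl23a held in 2 of 6 and A930015D03Rik in 1 of 6.

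Of the lists, Hspa1b of the stress list was the 1 gene called between genotypes. Of 22 anergy genes 0 were called by edgeR and 0 by DESeq2, with 4 at an unadjusted p under 0.05 in edgeR. Cd44 stood at 66.8, 69.7 and 71.7 CPM for H2-O KO against 192, 59.2 and 110 CPM for H2-O WT (log2 fold change -0.70 ± 0.28, adjusted p = 0.522 by edgeR), and passed without H2-O WT replicate 2 (-1.04, adjusted p = 0.0465). Lag3 stood at 64.1, 69.7 and 134 CPM against 138, 24.1 and 157 CPM (-0.26 ± 0.40, adjusted p = 0.872), and Pdcd1 at 48.3, 29.2 and 62.2 CPM against 61.3, 18.5 and 91.6 CPM (-0.32 ± 0.37, adjusted p = 0.829). In both the H2-O WT mice held the highest and the lowest value. On simulated data of this size the test recovered 64.4% of the 2-fold changes tested among members, so that changes of this size could be missed.

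The difference of members from other Foxp3-negative cells was also tested for a difference between genotypes. Of 10342 genes 1 (0.00967%) was called by edgeR and 0 by DESeq2, with 458 at an unadjusted p under 0.05 in edgeR. It was Trbv20, a T cell receptor beta variable segment (chromosome 6, 41188273 to 41188977), at 62.4, 27.6 and 27.0 CPM in members from H2-O KO mice, against 26.8, 70.3 and 188 CPM in those from H2-O WT mice. A Trbv20 UMI was found in 12, 4 and 5 members of H2-O KO and in 2, 4 and 13 of H2-O WT. The call was lost without H2-O KO replicate 2, H2-O KO replicate 3 or H2-O WT replicate 3 (highest adjusted p = 0.930).

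No V segment was called between members and other Foxp3-negative cells in the tests within each chain. Of 55 Trav segments 0 were called by edgeR, with 2 at an unadjusted p under 0.05, and of 22 Trbv segments 0, with 1. Trav5-4 had the smallest p of the alpha segments, at 1.18% ± 1.20 of alpha UMIs in members and 2.90% ± 0.245 in other Foxp3-negative cells (SD, n = 6, adjusted p = 0.303 by edgeR). In the fits over all genes, which do not scale to the alpha UMIs and pool the spread over genes, Trav5-4 was called lower in members, by log2 fold changes of -1.23 against other Foxp3-negative cells (adjusted p = 0.000695) and -1.28 against Izumo1r+ Nt5e-negative cells (adjusted p = 0.000553), from 35 UMIs in members. Near-identical Trav segments share reads, so single segments are uncertain.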

How the data were processed

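The deposited values are raw UMI counts per gene and barcode, whole numbers without normalization, for barcodes that the authors' Cell Ranger 6.1.2 run on mm10 called cells (tool and build from the submitters' processing notes), 1 library per mouse. Libraries held 9973193 to 40237962 UMIs. Cells were filtered and members chosen by the stated rule; doublets were limited only by the UMI maximum. Members, gene lists and tests were chosen with earlier results of these data known, and the comparison with Izumo1r+ Nt5e-negative cells after seeing the data. Groups follow the labels, which give 8 weeks of age; the study's methods give another age and gate.

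UMIs were summed per class and library and tested with edgeR 4.0.16 (filterByExpr, TMM, glmQLFit, glmQLFTest; R 4.3.3; Benjamini-Hochberg, adjusted p under 0.05), with the library as a block between classes. The replicate is the mouse. DESeq2 1.42.0, RLE scaling, no low-count filter, a UMI range of 3000 to 8000, other members and comparison cells, and each library left out were alternatives. Shares used exact permutation tests and exact binomial intervals. Genes named are those of the lists, Cd44, Pdcd1, H2-Oa, and in each comparison up to 10 largest rises and falls among called genes of at least 10 CPM that moved alike in all 6 libraries. Gene positions come from GENCODE M21 on GRCm38, where 32235 of 32285 identifiers were found. Data were also simulated with 200 genes changed 2-fold, and recovery is given as a share of the changed genes that were tested. On these data edgeR recovered 78.9% against other Foxp3-negative cells, 92.6% against Foxp3+ cells, 92.4% against Cxcr5+ cells, 92.1% against Izumo1r+ Nt5e-negative cells and 39.2% for the difference between genotypes. Some list members are not reported here.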

Additional observations from a re-analysis of the deposited data

Results flagged for a closer look

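Trbv20 differed between the genotypes in how members departed from other Foxp3-negative cells, with an interaction of -1.54 on the log2 scale (adjusted p = 0.0268 by edgeR, 0 genes by DESeq2). Other Foxp3-negative cells held 79.5, 74.3 and 78.5 CPM for H2-O KO against 53.1, 77.7 and 72.0 CPM for H2-O WT. Members held 71, 17 and 20 Trbv20 UMIs from H2-O KO mice, against 7, 38 and 121 from H2-O WT mice. Without H2-O WT replicate 3 the interaction was -0.59 (adjusted p = 0.930).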

How the results depend on the processing

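Over the named genes and alternatives run, 1166 fold changes kept their side of the threshold, 73 lost a call, 7 gained one and 4 turned. Fits that left out a library entered this tally only as the lowest and highest value of each gene. Cd44 against Foxp3+ cells changed sign without a call in either fit and was not counted as turned. The share of members turned to 0.342 points higher in H2-O KO without the ribosomal protein minimum, and ran from -0.969 to -0.0155 points with each library left out. Against other Foxp3-negative cells the 1441 calls became 931 without the library as a block (no replicate block), 343 without members that had Il2ra or Ikzf2 and 433 in Cd44+ cells. Against Foxp3+ cells the 781 calls became 451 with DESeq2 and 344 without that block. Against Cxcr5+ cells the 262 calls became 142 with DESeq2, 50 without that block, 582 without members that had Il2ra or Ikzf2, and 162 (without H2-O KO replicate 1) to 283 with each library left out. Against Izumo1r+ Nt5e-negative cells the 898 calls became 546 with DESeq2, 412 without that block and 104 without members that had Il2ra or Ikzf2. Between genotypes the 7 calls became 55 with no filter on low counts, 12 without members that had Il2ra or Ikzf2, and 3 (without H2-O KO replicate 1) to 22 (without H2-O WT replicate 2). The genotype difference called 0 genes with DESeq2, 8 with no filter, and 0 (without H2-O KO replicate 3) to 13 (without H2-O WT replicate 2) with a library left out. Without thinning 39 marker shares passed against 0, all at the smallest p that 6 pairs allow, so this count follows the adjustment and not the size of any difference. The cause was not tested for these changes, except that fewer cells or samples enter several of them.

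The genes counted as turned were Ikzf1 in Cd44+ cells (0.047), Lag3 (-0.38) and Pdcd1 (-0.68) against Foxp3+ cells and Cd83 (-0.083) against Izumo1r+ Nt5e-negative cells, the last 3 without members that had Il2ra or Ikzf2. In that setting Cd44 against Foxp3+ cells also changed sign, to -0.006 (adjusted p = 0.991 by edgeR), with no call in either fit. Il2ra and Ikzf2 have no value in that setting, nor Cd44 in Cd44+ cells. With the replicate number as a block, 22 genes were called between genotypes, but the labels do not say what that number stands for. The deviations of mice with the same number correlated at -0.01, 0.07 and 0.19 over 6804 genes. For mice with different numbers they ran from -0.146 to 0.0956. These values do not settle whether the number pairs the mice. With 3 mice a genotype, changes of 2-fold between genotypes could be missed.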
